A study of Mus musculus with 30 samples.

Results

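The p53 target genes described here are 32 mouse genes known to be switched on by the transcription factor p53, read on 30 single-colour Illumina bead arrays. Members were found by gene symbol, current or older, among the array's probe names, and each gene was represented by the detected probe with the highest mean. All 32 had a probe. A probe counted as detected where the scanner's detection p was under 0.01 on at least 3 arrays, and 28 of the 32 passed, out of 13870 genes that passed in all. Aen, Btg2, Perp and Tigar passed on 0 arrays, so nothing is said of their changes, and the counts below are of the 28 members that passed.

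The arrays cover 3 stages of mouse embryonic fibroblasts (MEFs) in 2 genotypes. Smchd1 null cells carry the MommeD1 point mutation on the FVB/N background, and wildtype cells are FVB/N. Smchd1 is a chromatin protein needed for stable gene silencing, including on the inactive X chromosome. The groups were null and wildtype primary MEFs (3 arrays each), null and wildtype MEFs transformed by p53 knockdown together with HRasV12 overexpression (3 arrays each), and tumours grown from null and wildtype transformed MEFs in nude mice (3 recipients each, every recipient with 3 arrays that were averaged to 1 value). Primary MEFs had been kept for 2 to 3 passages and transformed MEFs were taken 2 weeks after transformation. Every transformed culture and every tumour thus carries both the p53 knockdown and the oncogene, and no group has only 1 of them. Each culture stage lay on 1 chip of its own and tumours on 3 further chips, so stage and chip cannot be told apart, while both genotypes lay on every chip. Tumours also hold cells of the recipient, whose own p53 was not knocked down. The labels do not say whether the 3 arrays of a culture group came from separate embryos or cultures, so a p-value here is set against the variation among those arrays, part or all of which could be technical.

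p53 is a transcription factor that is held low in unstressed cells by the ubiquitin ligase Mdm2, itself a p53 target. When DNA damage or an oncogene such as activated Ras frees it, p53 binds paired copies of a short half-site near its targets. Those targets stop the cell cycle, repair DNA, rein in growth signalling through mTORC1, or start cell death. In fibroblasts, oncogenic Ras normally leads to p53-dependent arrest, and loss of p53 function lets Ras transform the cells.

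The promoters of 6 members are shown as examples, because 5 of them hold the p53 half-site consensus, while the one of Fas does not. They do not stand for all members in the results below, as the windows of Bbc3, for 1, hold 0 half-sites. Each is the 250 bases before an annotated start site, 5′ to 3′ on the strand of the gene, from RefSeq on GRCm38.p6, with matches to the half-site consensus in capitals.
Cdkn1a: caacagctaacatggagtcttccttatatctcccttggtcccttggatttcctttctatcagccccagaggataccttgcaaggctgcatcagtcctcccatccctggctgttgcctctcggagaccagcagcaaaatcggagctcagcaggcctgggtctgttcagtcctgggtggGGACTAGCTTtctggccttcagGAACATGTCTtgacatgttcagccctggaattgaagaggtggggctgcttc
Ccng1: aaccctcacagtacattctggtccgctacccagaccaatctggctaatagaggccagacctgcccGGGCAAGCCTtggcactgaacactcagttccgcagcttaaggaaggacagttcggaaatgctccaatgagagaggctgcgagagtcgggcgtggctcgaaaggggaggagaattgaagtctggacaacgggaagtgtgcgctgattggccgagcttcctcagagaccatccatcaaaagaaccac
Mdm2: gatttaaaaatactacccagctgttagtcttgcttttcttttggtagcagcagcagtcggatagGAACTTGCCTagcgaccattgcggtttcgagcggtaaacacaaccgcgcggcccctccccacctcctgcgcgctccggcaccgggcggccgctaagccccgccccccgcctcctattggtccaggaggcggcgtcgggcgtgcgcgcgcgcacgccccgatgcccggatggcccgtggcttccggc
Sesn1: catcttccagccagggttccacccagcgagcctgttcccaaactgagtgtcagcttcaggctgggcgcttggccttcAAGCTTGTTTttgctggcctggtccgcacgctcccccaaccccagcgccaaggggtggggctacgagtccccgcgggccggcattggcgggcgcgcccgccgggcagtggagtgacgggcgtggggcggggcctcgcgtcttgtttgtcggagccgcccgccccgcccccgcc
Ddit4l: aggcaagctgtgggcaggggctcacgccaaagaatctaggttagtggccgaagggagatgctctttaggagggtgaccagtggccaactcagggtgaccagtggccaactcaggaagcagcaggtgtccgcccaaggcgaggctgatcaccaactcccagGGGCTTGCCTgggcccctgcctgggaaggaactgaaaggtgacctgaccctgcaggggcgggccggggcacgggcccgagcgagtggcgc
Fas: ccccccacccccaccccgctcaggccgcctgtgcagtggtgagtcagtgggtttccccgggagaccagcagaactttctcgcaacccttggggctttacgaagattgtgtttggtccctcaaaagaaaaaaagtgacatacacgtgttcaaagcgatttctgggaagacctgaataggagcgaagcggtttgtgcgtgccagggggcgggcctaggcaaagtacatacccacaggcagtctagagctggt
The windows lie at chr17:29090729-29090978 on the plus strand for Cdkn1a, chr11:40755287-40755536 on the minus strand for Ccng1, chr10:117710759-117711008 on the minus strand for Mdm2, chr10:41887189-41887438 on the plus strand for Sesn1 (the second of its 2 annotated starts), chr3:137623422-137623671 on the plus strand for Ddit4l, and chr19:34290409-34290658 on the plus strand for Fas. Promoter windows were at hand for 24 of the 32 members, 33 windows in all, and 11 members had a window with a half-site. That is 33.3% of the members' windows, against 7.13% of all 32851 windows, as a description with no test. The half-site consensus reads the same on both strands, so 1 search covers both. A full site, 2 half-sites at most 13 bases apart, was found in the Cdkn1a window shown and in no other member window, against 0.0639% of all windows. Cdkn1a, like Sesn1, has 2 annotated starts, and the window not shown holds 0 half-sites for either gene. A match is a run of letters and not a measured binding site, and p53 sites of several targets are known to lie outside such windows, in introns or farther upstream.

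Trp53, the gene of p53 and the target of the knockdown, was lower in transformed than in primary MEFs of both genotypes. Its main probe read 7.72, 7.39 and 7.54 log2 units in null transformed MEFs, against 10.59, 10.71 and 10.65 in null primary MEFs. In wildtype cells the same probe read 7.55, 7.67 and 7.53 in transformed MEFs, against 10.96, 11.08 and 10.85 in primary MEFs. Levels on the array are log2 intensities, on which 1 unit is a doubling, and differences below are in those units. Trp53 fell by 3.10 ± 0.10 (SE, 8.57-fold, adjusted p = 3.77e-11) in null cells and fell by 3.38 ± 0.10 (10.4-fold, adjusted p = 1.91e-11) in wildtype cells, in a limma fit over all genes with Benjamini-Hochberg adjustment. Tumours read 8.11 to 8.32 with the null genotype and 7.96 to 8.86 with the wildtype one, higher than transformed MEFs by 0.66 and 0.69 (adjusted p = 0.0199 and 0.0193). A second Trp53 probe read 6.65 to 8.58 in tumours of either genotype and at most 6.48 in all culture samples. In primary MEFs, where the main probe read 10.59 to 11.08, the second was above background (defined below) in 1 of 3 wildtype and 0 of 3 null samples. A further Trp53 probe was detected on 0 arrays. Hras differed by 0.27 (adjusted p = 0.0185) between transformed and primary null cells and by -0.06 (adjusted p = 0.596) in wildtype cells, and the labels do not say whether this mouse probe can read the introduced HRasV12. Smchd1 was lower in null than in wildtype samples, with differences of -2.32 in primary MEFs and -2.13 in transformed MEFs (adjusted p = 4.87e-05 and 0.000115). In tumours Smchd1 was at 8.01 to 8.25 in null and 9.16 to 9.46 in wildtype recipients, with no overlap, although no gene of the array passed the adjusted threshold in that comparison.

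**Figure D1:**
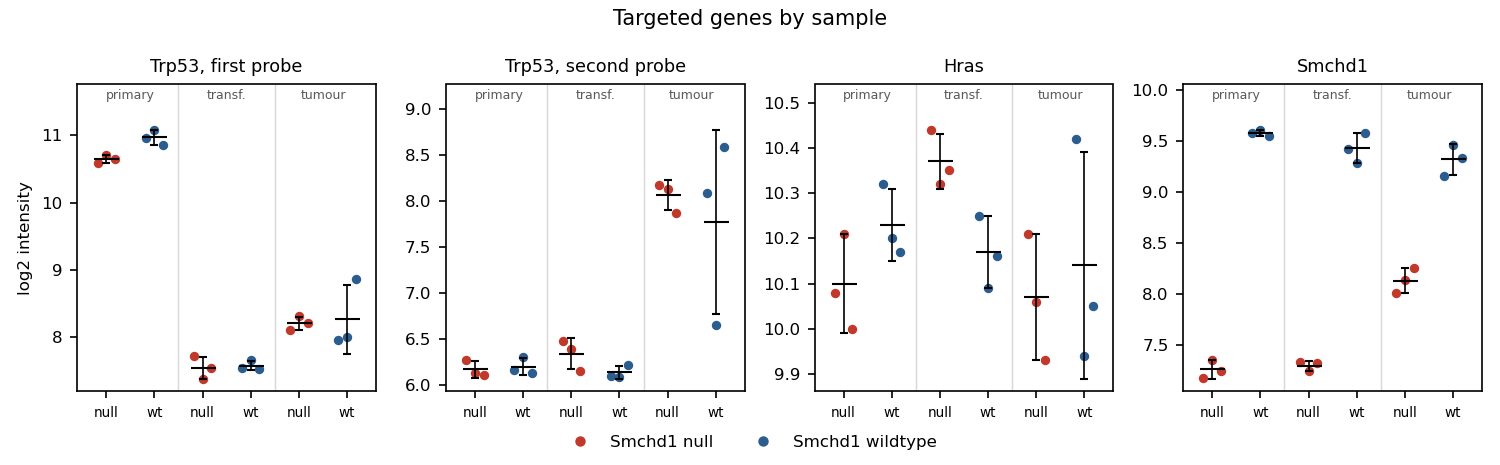
Log2 intensity of Trp53 (2 probes), Hras and Smchd1 in every replicate of the 6 groups (points; tumour points are means of a recipient's 3 arrays), with the mean and SD of 3 replicates in black; each panel has its own axis, which does not start at 0. The first Trp53 probe sits at 7.39 to 7.72 in transformed MEFs, below the 10.59 to 11.08 of primary MEFs.

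Although Trp53 was far lower in transformed MEFs, p53 targets were called in both directions. In null cells 20 of the 28 members differed between transformed and primary MEFs (9 higher, 11 lower), and in wildtype cells also 20 (12 higher, 8 lower). Transformation changed much of the transcriptome, with 54.4% of all genes past the threshold of adjusted p under 0.05 in null cells (28.7% higher, 25.8% lower) and 52% in wildtype cells (26.4% higher, 25.6% lower). The members' median difference was 0.01 in null cells, against 0.04 over all genes, and 0.07 in wildtype cells, against 0.02 over all genes. The members ranged from -2.84 to 0.84 in null cells and from -2.80 to 1.11 in wildtype cells. Under either of the other scalings of the arrays (values as deposited, or each array centred on its median), the split in wildtype cells was 12 higher and 11 lower. Between genotypes, 9 members rose in both, 7 fell in both and 0 were called in opposite directions, so the rises shared are 100% of the null list and 75% of the wildtype list, and the falls shared are 63.6% of the null list and 87.5% of the wildtype list. Of all genes, 20.6% rose and 20.9% fell in both genotypes. The p53 knockdown and HRasV12 were given together, so their parts in these differences cannot be told apart.

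**Figure D2:**
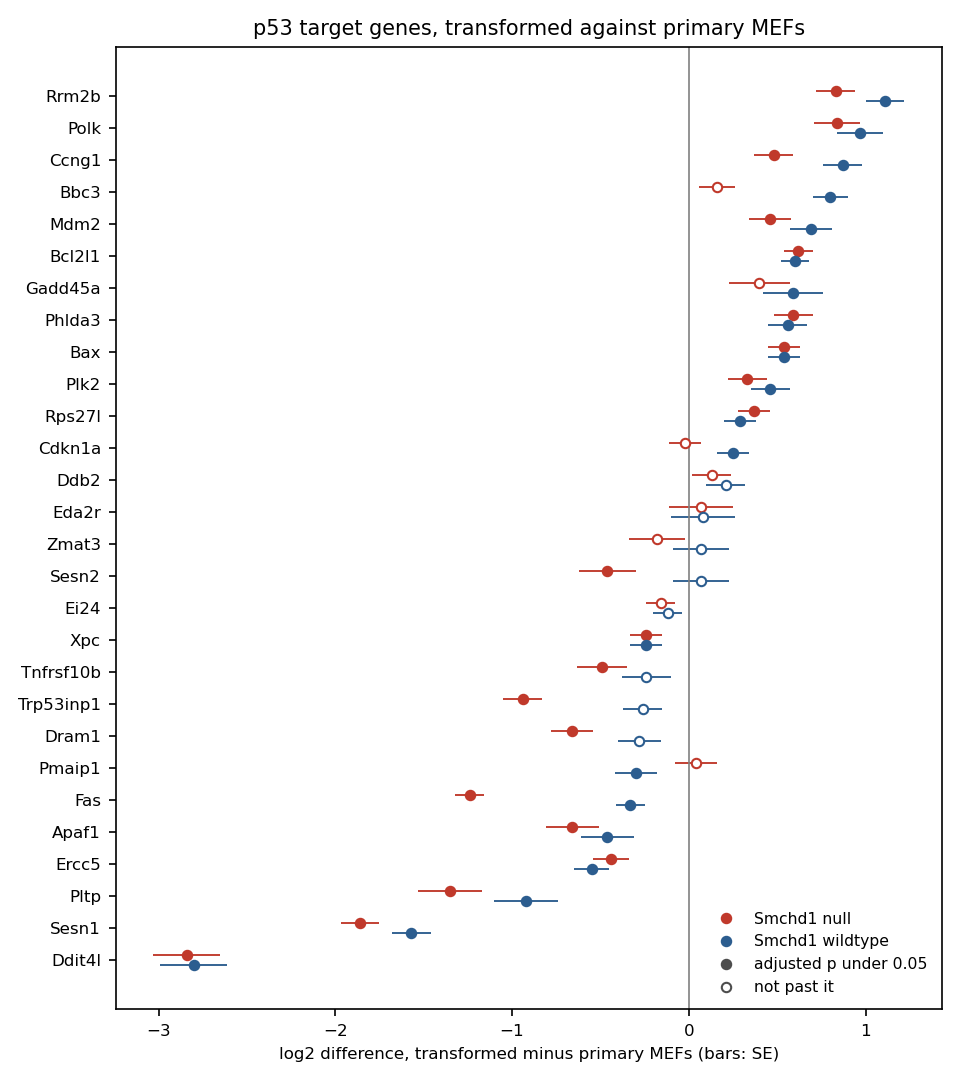
Log2 difference of transformed minus primary MEFs for the 28 members that passed the detection filter, in null (red) and wildtype cells (blue), with SE bars from the limma fit; filled points passed the adjusted p of 0.05. Ddit4l and Sesn1 lie farthest to the left in both genotypes, and Rrm2b, Polk and Ccng1 farthest to the right in wildtype cells.

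Each member was placed under 1 role, although some, such as Trp53inp1, act in more. Of the feedback and cell cycle genes, none was called lower in transformed cells. Of the 5 that passed the filter, 3 rose and 0 fell in null cells, with a median difference of 0.40, and 5 rose in wildtype cells, with a median of 0.59. In null cells Mdm2 was at 11.70, 11.96 and 11.81 in transformed MEFs, against 11.21, 11.47 and 11.41 in primary MEFs. In wildtype cells Mdm2 was at 11.97, 12.14 and 11.72 in transformed MEFs, against 11.18, 11.26 and 11.32 in primary MEFs. The transformed samples lay above the primary ones without overlap in both genotypes, and Mdm2 rose 1.38-fold in null cells (adjusted p = 0.00449) and 1.61-fold in wildtype cells (adjusted p = 0.000269). Ccng1 encodes cyclin G1, which brings protein phosphatase 2A to Mdm2. It read 11.92, 11.84 and 12.07 in null transformed MEFs, against 11.39, 11.37 and 11.64 in null primary MEFs. Wildtype Ccng1 read 12.23, 12.29 and 12.46 in transformed MEFs, against 11.60, 11.35 and 11.43 in primary MEFs. The rise was 1.39-fold in null cells (adjusted p = 0.00231) and 1.83-fold in wildtype cells (adjusted p = 1.92e-05), and the other 2 Ccng1 probes gave differences of 0.88 and 1.08 in null cells and of 0.95 and 1.23 in wildtype cells.

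Cdkn1a, the gene of the cyclin-dependent kinase inhibitor p21 and the textbook p53 target, changed little. In null cells it was at 11.53, 11.46 and 11.54 in transformed MEFs, against 11.48, 11.48 and 11.62 in primary MEFs. In wildtype cells it was at 11.78, 11.64 and 11.61 in transformed MEFs, against 11.30, 11.59 and 11.37 in primary MEFs. The null samples overlapped, with a difference of -0.02, and the wildtype ones just missed overlapping, with a rise of 0.25 ± 0.09 (1.19-fold, adjusted p = 0.038). That call was lost when any of 4 of the 6 wildtype replicates was left out (primary 1 or 3, transformed 1 or 2; differences of 0.19 to 0.34, adjusted p up to 0.145). The other 2 Cdkn1a probes differed by 0.12 and -0.11 in null cells and by 0.43 and 0.31 in wildtype cells. Gadd45a, a growth arrest gene induced by DNA damage, rose 1.51-fold in wildtype cells (adjusted p = 0.0115), and its difference in null cells was 0.40. Plk2, a polo-like kinase active at entry to S phase, rose 1.26-fold in null cells (adjusted p = 0.0216) and 1.38-fold in wildtype cells (adjusted p = 0.00314). The null Plk2 call was lost when primary replicate 1 or transformed replicate 1 or 3 was left out (differences of 0.25 to 0.43).

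Of the genes placed under metabolism, stress responses and autophagy, none was called higher in transformed cells. Of 7 that passed the filter, 0 rose and 6 fell in null cells, with a median of -0.94, and 0 rose and 3 fell in wildtype cells, with a median of -0.28. Ddit4l, which encodes an inhibitor of mTORC1 signalling also called REDD2, was at 7.20, 7.09 and 7.15 in null transformed MEFs, against 10.16, 10.27 and 9.54 in null primary MEFs. In wildtype cells it was at 6.72, 7.42 and 7.17 in transformed MEFs, against 10.06, 9.76 and 9.89 in primary MEFs. It fell by 2.84 ± 0.19 (7.16-fold, adjusted p = 5.32e-08) in null cells and fell by 2.80 ± 0.19 (6.98-fold, adjusted p = 6.45e-08) in wildtype cells. Sesn1 encodes sestrin 1, a stress-induced protein that also restrains mTORC1. It was at 9.41, 9.31 and 9.53 in null transformed MEFs, against 11.10, 11.26 and 11.47 in null primary MEFs. In wildtype cells Sesn1 was at 9.63, 9.96 and 9.70 in transformed MEFs, against 11.37, 11.27 and 11.37 in primary MEFs. It fell 3.63-fold in null cells (adjusted p = 2e-08) and 2.97-fold in wildtype cells (adjusted p = 1.12e-07), and its other 2 probes differed by -1.29 and -0.46 in null cells and by -1.37 and -0.84 in wildtype cells. Sesn2, its relative with the same function, fell 1.37-fold in null cells (adjusted p = 0.0284) and differed by 0.07 in wildtype cells. That null call was lost when primary replicate 1 or 3 or transformed replicate 1 or 3 was left out (differences of -0.59 to -0.37).

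Pltp, the gene of phospholipid transfer protein, was at 6.48, 6.94 and 7.27 in null transformed MEFs, against 8.49, 8.21 and 8.05 in null primary MEFs. Wildtype Pltp was at 7.50, 7.03 and 7.30 in transformed MEFs, against 8.17, 8.21 and 8.20 in primary MEFs. The groups did not overlap, with falls of 2.55-fold in null cells (adjusted p = 3.29e-05) and 1.89-fold in wildtype cells (adjusted p = 0.000868). Trp53inp1 encodes a stress-induced protein that acts in autophagy and in p53-dependent cell death. It was at 9.02, 8.70 and 8.94 in null transformed MEFs, against 9.71, 9.91 and 9.85 in null primary MEFs. In wildtype cells it was at 9.46, 9.54 and 9.39 in transformed MEFs, against 9.87, 9.79 and 9.51 in primary MEFs, and there the groups overlapped. Trp53inp1 fell 1.91-fold in null cells (adjusted p = 1.46e-05), and its difference in wildtype cells was -0.26 and was not called. Dram1, a lysosomal regulator of autophagy, fell 1.58-fold in null cells (adjusted p = 0.000572), and its difference in wildtype cells was -0.28. Ei24, an endoplasmic reticulum protein of autophagy, differed by -0.16 and -0.12 and was called in neither genotype.

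The cell death genes were mixed. Of 11 that passed the filter, 4 rose and 3 fell in null cells, and 5 rose and 3 fell in wildtype cells. Bax, which forms pores in the outer membrane of mitochondria, was at 11.48, 11.44 and 11.63 in null transformed MEFs, against 11.12, 10.95 and 10.87 in null primary MEFs. In wildtype cells Bax was at 11.56, 11.66 and 11.63 in transformed MEFs, against 11.12, 11.08 and 11.04 in primary MEFs. It rose 1.45-fold in each genotype (adjusted p = 0.000191 in null cells and 0.000215 in wildtype cells). Bbc3, the gene of the killer protein Puma, was at 9.80, 9.86 and 9.91 in null transformed MEFs, against 9.70, 9.58 and 9.82 in null primary MEFs. Wildtype Bbc3 was at 10.22, 10.43 and 10.25 in transformed MEFs, against 9.44, 9.39 and 9.67 in primary MEFs. The null samples overlapped, with a difference of 0.16, and the wildtype ones did not, with a 1.74-fold rise (adjusted p = 2.3e-05). The other 2 Bbc3 probes, detected on 6 and 5 arrays, differed by 0.28 and 0.33 in null cells and by -0.10 and 0.52 in wildtype cells, and the wildtype difference over the mean of the 3 probes was 0.40 (adjusted p = 0.00345). Pmaip1, the gene of the killer protein Noxa, was not above background in any wildtype transformed sample, so its wildtype fall is a bound of at least 1.05-fold; the call (adjusted p = 0.0463) was lost whichever of the 6 replicates was left out. An array's background here was the 95th percentile over its never-detected probes, about 6.3 to 6.4 log2 units.

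Fas, the death receptor for Fas ligand, was at 8.17, 8.05 and 8.07 in null transformed MEFs, against 9.28, 9.29 and 9.43 in null primary MEFs. In wildtype cells Fas was at 8.71, 8.67 and 8.75 in transformed MEFs, against 9.14, 8.96 and 9.02 in primary MEFs. Neither pair overlapped, and Fas fell 2.36-fold in null cells (adjusted p = 4.82e-08) and 1.26-fold in wildtype cells (adjusted p = 0.0047). Tnfrsf10b, the receptor for the death ligand TRAIL in mice, fell 1.40-fold in null cells by its main probe (adjusted p = 0.00803), while its other 3 detected probes differed by 0.62, 0.54 and 0.30 in the opposite direction. Bcl2l1, the gene of the anti-apoptotic protein Bcl-xL, was at 8.63, 8.75 and 8.78 in null transformed MEFs, against 8.11, 8.10 and 8.08 in null primary MEFs. Wildtype Bcl2l1 was at 8.81, 8.91 and 8.85 in transformed MEFs, against 8.27, 8.34 and 8.17 in primary MEFs. With no overlap, it rose 1.54-fold in null cells (adjusted p = 2.41e-05) and 1.51-fold in wildtype cells (adjusted p = 3.77e-05).

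Phlda3, a competitor of the kinase Akt for membrane lipids, was at 11.52, 11.15 and 11.16 in null transformed MEFs, against 10.64, 10.82 and 10.61 in null primary MEFs. In wildtype cells Phlda3 was at 11.44, 11.19 and 11.40 in transformed MEFs, against 10.70, 10.82 and 10.82 in primary MEFs. It rose 1.50-fold in null cells (adjusted p = 0.000766) and 1.48-fold in wildtype cells (adjusted p = 0.00111). Rps27l, a ribosomal protein paralogue and the member with the highest signal, was at 14.14, 13.98 and 13.99 in null transformed MEFs, against 13.64, 13.74 and 13.63 in null primary MEFs. Wildtype Rps27l was at 14.06, 13.97 and 13.87 in transformed MEFs, against 13.72, 13.58 and 13.73 in primary MEFs. It rose 1.29-fold in null cells (adjusted p = 0.00322) and 1.22-fold in wildtype cells (adjusted p = 0.0145), and the wildtype call was lost without primary replicate 2 or transformed replicate 1 (0.24 to 0.34). Apaf1, the scaffold of the apoptosome, fell 1.58-fold in null cells (adjusted p = 0.00188) and 1.38-fold in wildtype cells (adjusted p = 0.0174), the wildtype call being lost without primary replicate 1 or transformed replicate 1 (-0.59 to -0.30). Zmat3, an RNA-binding protein, and Eda2r, a receptor of the tumour necrosis factor family detected on only 4 arrays, were called in neither genotype.

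The genes of DNA repair and nucleotide supply split evenly, with 2 of 5 higher and 2 lower in each genotype. Rrm2b, the p53-inducible small subunit of ribonucleotide reductase, was at 8.93, 8.86 and 9.02 in null transformed MEFs, against 8.09, 8.09 and 8.13 in null primary MEFs. In wildtype cells Rrm2b was at 8.90, 9.07 and 9.03 in transformed MEFs, against 7.92, 7.66 and 8.09 in primary MEFs. It rose 1.78-fold in null cells (adjusted p = 2.12e-05) and 2.16-fold in wildtype cells (adjusted p = 1.5e-06). Polk, a DNA polymerase that copies past damaged bases, was at 8.82, 8.86 and 9.04 in null transformed MEFs, against 7.94, 8.14 and 8.10 in null primary MEFs. Wildtype Polk was at 8.85, 9.05 and 9.29 in transformed MEFs, against 8.30, 7.85 and 8.14 in primary MEFs. It rose 1.79-fold in null cells (adjusted p = 0.000156) and 1.95-fold in wildtype cells (adjusted p = 5.32e-05). Ercc5, an endonuclease of nucleotide excision repair, was at 9.75, 9.84 and 9.71 in null transformed MEFs, against 10.24, 10.10 and 10.28 in null primary MEFs. In wildtype cells Ercc5 was at 9.81, 9.55 and 9.69 in transformed MEFs, against 10.26, 10.40 and 10.06 in primary MEFs. It fell 1.36-fold in null cells (adjusted p = 0.00302) and 1.47-fold in wildtype cells (adjusted p = 0.000623), but a second probe, detected on 13 arrays, differed by 0.04 and 0.07. Xpc, which recognises distorted DNA, fell 1.18-fold in both genotypes (adjusted p = 0.0339 in null and 0.0351 in wildtype cells). Both Xpc calls were lost when any of 4 of the 6 replicates was left out (null primary 1, 2 or 3 or transformed 3; wildtype primary 1 or 2 or transformed 2 or 3; -0.29 to -0.18). Ddb2, its partner in damage recognition, was called in neither genotype.

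**Figure D3:**
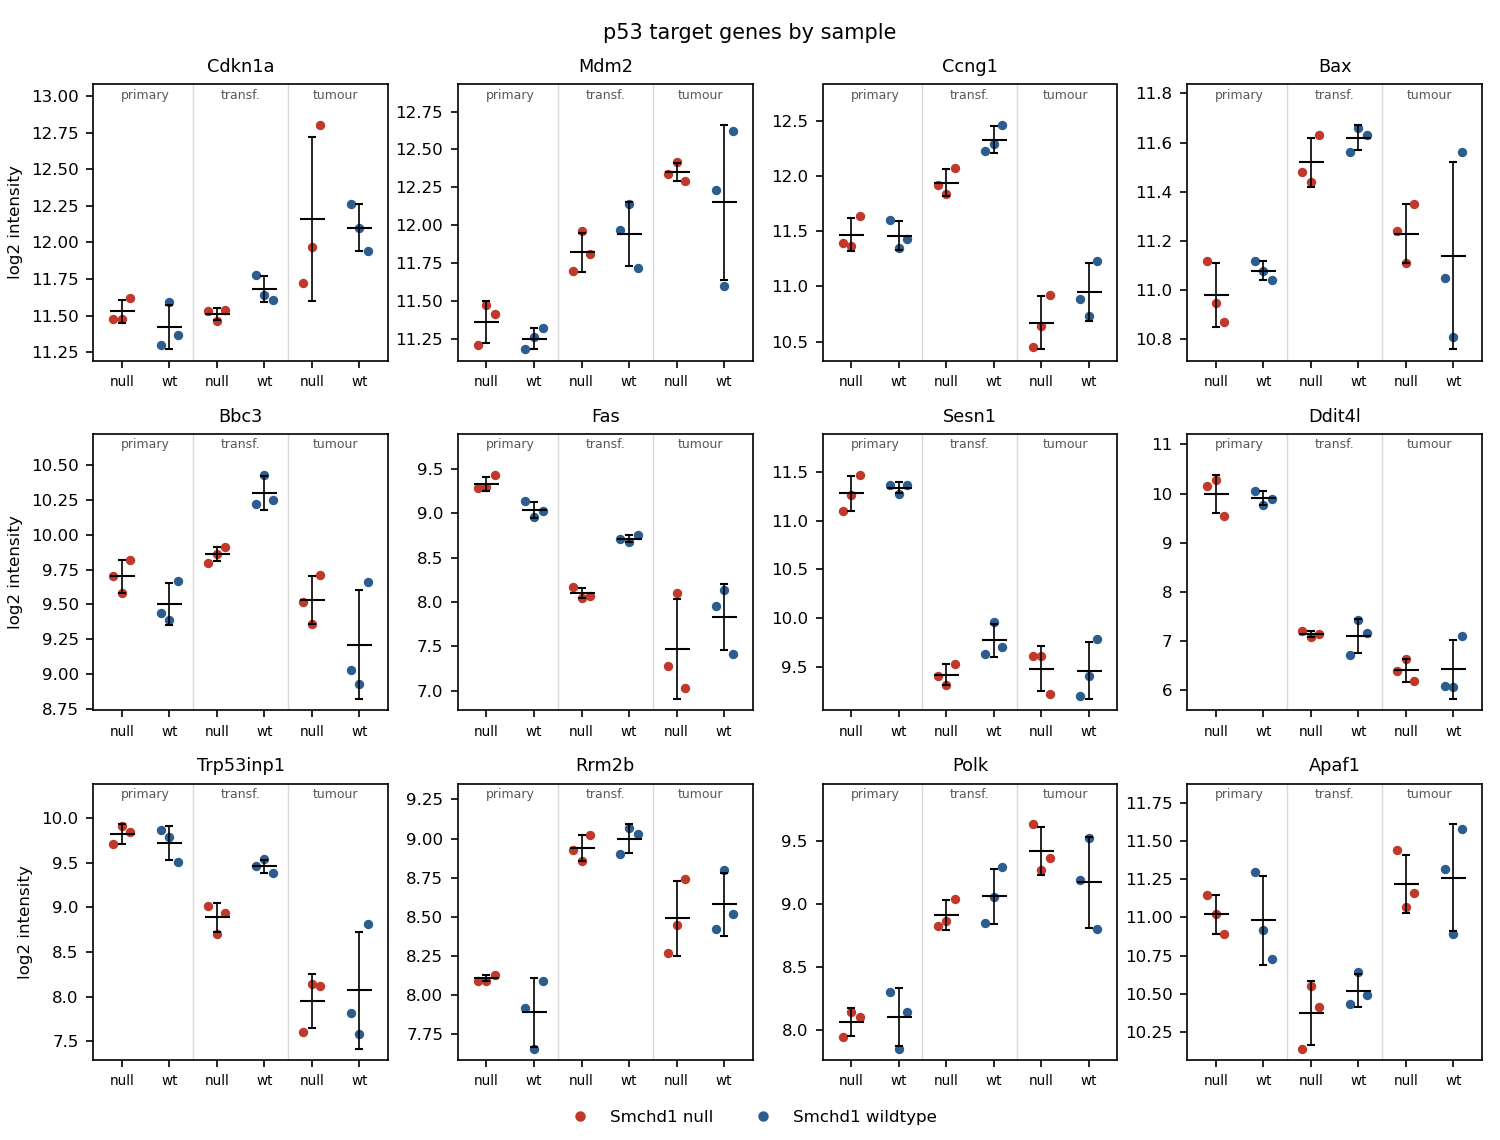
Log2 intensity of 12 p53 target genes in every replicate of the 6 groups (points; tumour points are recipient means), with the mean and SD of 3 replicates in black; each panel has its own axis, which does not start at 0. Sesn1 and Ddit4l are lower in all 6 transformed samples than in any primary sample, while Rrm2b, Polk, Mdm2 and Bax are higher there.

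Other genes around p53 give the setting. Of 20 p53 regulators listed, 17 passed the filter, and 4 rose and 4 fell in null cells while 2 rose and 4 fell in wildtype cells. Trp53 itself, the target of the knockdown, is among the 17 and among those that fell in each genotype. Cdkn2a, whose locus encodes the Mdm2 inhibitor Arf and the kinase inhibitor Ink4a, was at 14.14 to 14.26 in null transformed MEFs, against 6.05 to 6.46 in null primary MEFs, where 1 of 3 samples was above background (adjusted p = 2.2e-14). In wildtype cells Cdkn2a was at 14.29 to 14.43 in transformed MEFs, against 6.03 to 6.23 in primary MEFs, where no sample was above background, so it was at least 266-fold higher (adjusted p = 2.04e-14). Hipk2, a kinase that phosphorylates p53, fell by 1.09 in null cells and fell by 1.14 in wildtype cells (adjusted p = 1.17e-05 and 8.19e-06). Of 24 further p53 targets listed, 21 passed, with 7 higher and 5 lower in null cells and 8 higher and 5 lower in wildtype cells. Among them Ddit4, the mTORC1 inhibitor related to Ddit4l, fell by 1.69 in null cells and fell by 2.03 in wildtype cells (adjusted p = 2.43e-07 and 4.14e-08). Sesn3, a relative of Sesn1 and Sesn2, went the other way and rose by 0.58 in null cells and by 1.48 in wildtype cells (adjusted p = 0.034 and 6.6e-05). Ppm1d, a phosphatase that switches p53 off, fell by 0.71 in null cells and fell by 0.85 in wildtype cells, and Pml, the organiser of nuclear bodies, rose by 1.05 in null cells and by 1.21 in wildtype cells. These further lists were chosen with earlier results of these data known.

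Markers of other cell types moved with the same comparison. All 12 macrophage and leukocyte markers that passed the filter were lower in transformed MEFs of both genotypes, with a mean level of 6.31 to 6.39 in null transformed and 10.08 to 10.26 in null primary samples, and of 6.28 to 6.34 in wildtype transformed and 10.12 to 10.39 in wildtype primary samples. Only 4 of the 12 were above background in null transformed MEFs and 2 in wildtype ones. Keratinocyte markers (7 of 7), skeletal muscle markers (6 of 6) and endothelial markers (8 of 10) were also lower in both genotypes. All 11 fibroblast markers were above background in every group, at a mean of 11.76 to 12.45 in the cultures. The part of these other cells in the members' differences was not tested. In bulk RNA, fewer cells of a type and less RNA per cell cannot be told apart.

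The genotypes differed in how some targets moved on transformation. The test of that difference, the transformed minus primary difference in null cells less that in wildtype cells, called 3 of the 28 members, all lower, against 2.36% of all genes (0.836% higher, 1.52% lower). They were Fas at -0.91 ± 0.12 (adjusted p = 0.00129), Trp53inp1 at -0.68 ± 0.16 (adjusted p = 0.0483) and Bbc3 at -0.64 ± 0.14 (adjusted p = 0.0352). In a single fit of all 6 groups, whose shared spread includes that of the tumours, 0 of the 3 were called (Fas at adjusted p = 0.503). Of the 28 members, 21 had a negative value, and the members' median was -0.19, against 0.01 over all genes. When each of the 12 culture replicates was left out in turn, the Fas call was kept in all 12 cases (-0.96 to -0.86), the Bbc3 call in 3 (-0.73 to -0.58) and the Trp53inp1 call in 2 (-0.75 to -0.57). The Bbc3 value was -0.15 (adjusted p = 0.643) over the mean of its 3 detected probes, 2 of which were detected on 6 and 5 arrays.

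The same 3 members, and no others, were called between null and wildtype transformed MEFs, a comparison that shares the 6 transformed arrays with the test above. In that comparison 6.53% of all genes were called (2.98% higher, 3.55% lower). Fas was at 8.17, 8.05 and 8.07 in null transformed MEFs, against 8.71, 8.67 and 8.75 in wildtype ones. It was 1.53-fold lower in null cells (-0.61 ± 0.08, adjusted p = 0.0064), and its second probe, detected on 14 arrays, differed by -0.46. Trp53inp1, at 8.70 to 9.02 in null and 9.39 to 9.54 in wildtype transformed MEFs, was 1.49-fold lower (adjusted p = 0.0194), and its second probe, detected on 6 arrays, differed by -0.38. Bbc3, at 9.80 to 9.91 in null and 10.22 to 10.43 in wildtype transformed MEFs, was 1.36-fold lower (adjusted p = 0.0278) by its main probe. Its other 2 probes differed by 0.09 and -0.17, and the mean of the 3 was not called (-0.17, adjusted p = 0.302). The Fas call was kept in all 6 cases of leaving out a replicate, the Trp53inp1 call in 2 and the Bbc3 call in 0 (adjusted p up to 0.0846). The single fit of all 6 groups called 0 members here as well.

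Most other members leaned the same way without passing the test, but the further p53 targets listed above did not. Of those 21 targets, 1 was called higher in null transformed MEFs (Ddit4, 0.45, adjusted p = 0.0289). Another 1 was called lower (Cpt1c, -0.56, adjusted p = 0.0336), and the median of the 21 was -0.03. In the test of the transformation effect between genotypes, 0 of the 21 were called, with a median of 0.02. Of the 28 members, 23 read lower in null than in wildtype transformed MEFs, with a median of -0.15 against 0 over all genes, and all 28 kept their sign on the values as deposited. Without overlap, 8 members were lower and 1 higher in null cells, or 32.1% of the members against 28.4% of all genes (14% lower, 14.4% higher). Ccng1 was at 11.84 to 12.07 in null and 12.23 to 12.46 in wildtype samples (-0.38, adjusted p = 0.0621), while its other 2 probes differed by -0.16 and -0.05. Sesn1 was at 9.31 to 9.53 in null and 9.63 to 9.96 in wildtype samples (-0.35, adjusted p = 0.107), while its other 2 probes differed by -0.16 and 0.15. Cdkn1a was at 11.46 to 11.54 in null and 11.61 to 11.78 in wildtype samples (-0.17, adjusted p = 0.278), and its other 2 probes differed by -0.33 and -0.44. Averaged over the 28 members, the level was 9.49 to 9.54 in the 3 null samples and 9.66 to 9.70 in the 3 wildtype ones, with a mean over all genes of 8.75 to 8.76 in each of the 6. Pmaip1 leaned the other way (0.38, adjusted p = 0.139), but it was above background in 2 of 3 null and 0 of 3 wildtype samples, which bounds it at 1.11-fold or more.

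**Figure D4:**
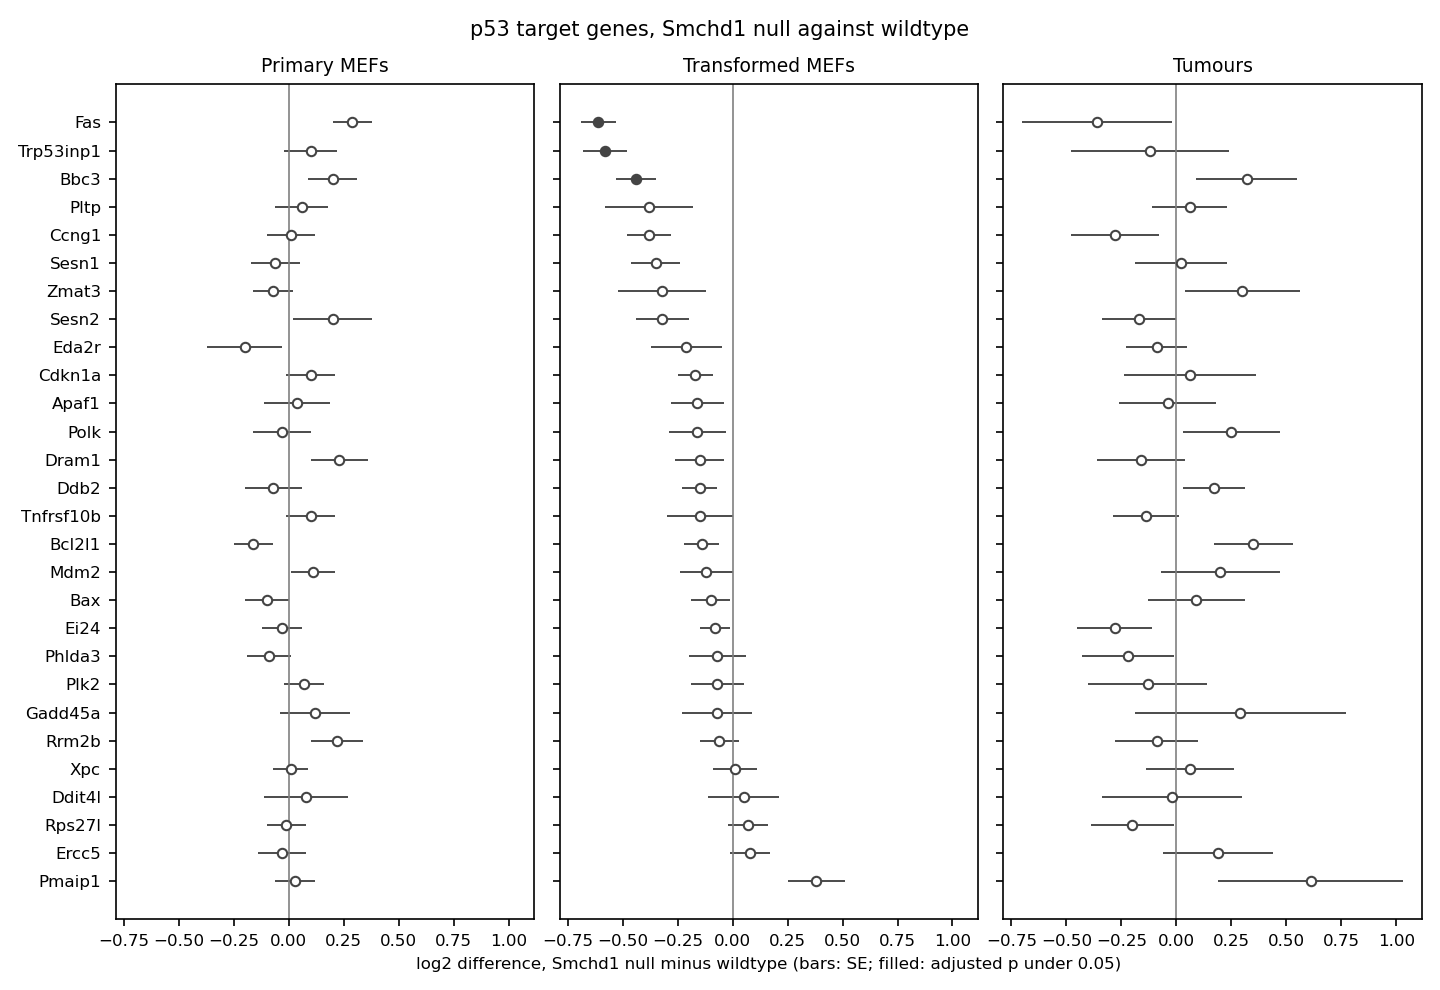
Log2 difference of Smchd1 null minus wildtype for the 28 members in primary MEFs, transformed MEFs and tumours, with SE bars from one limma fit per stage; filled points passed the adjusted p of 0.05. Fas, Trp53inp1 and Bbc3 in transformed MEFs are the 3 filled points, and the SE bars are widest in tumours.

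Cell cycle genes that p53 is known to lower through p21 and the DREAM repressor complex were mostly higher in null cells in the same comparison. Of 16 listed, 13 passed the filter, and 10 were higher and 0 lower in null than in wildtype transformed MEFs, with a median of 0.55. Of all genes, 2.98% were higher and 3.55% lower there. The mean level of these 13 genes was 10.69 to 10.84 in null and 10.24 to 10.32 in wildtype transformed MEFs, without overlap, and 10.28 to 10.56 in null and 10.51 to 10.57 in wildtype primary MEFs, which overlapped. Mybl2, a transcription factor of proliferating cells, was higher by 0.89 ± 0.10 (adjusted p = 0.00466), the mitotic checkpoint kinase Bub1b by 0.62 (adjusted p = 0.00551) and the mitotic kinase Plk1 by 0.65 (adjusted p = 0.00688). In the test of the transformation effect between genotypes, 6 of the 13 were higher and 0 lower, against 0.836% and 1.52% of all genes. On transformation itself 7 of the 13 rose and 1 fell in null cells (28.7% and 25.8% of all genes). In wildtype cells 0 rose and 5 fell (26.4% and 25.6% of all genes). Between null and wildtype tumours 0 of the 13 were called, as were 0% of all genes, and their median was -0.17. The cause of these differences was not tested. All 11 fibroblast markers passed the filter, and 3 of them were lower in null transformed MEFs, with a list median of -0.40.

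No member was called between null and wildtype primary MEFs, where 0.0505% of all genes were called and 1 member, Fas, had an unadjusted p under 0.05 (0.29, adjusted p = 0.746). Fas was at 9.28, 9.29 and 9.43 in null primary MEFs, against 9.14, 8.96 and 9.02 in wildtype ones, so that it was higher in null samples there and lower in null samples after transformation. The 28 members differed by -0.20 to 0.29 between the genotypes at this stage. In tumours, too, 0 members were called, with 0% of all genes called and 313 genes, none of them a member, at an unadjusted p under 0.05. The members' tumour differences ran from -0.36 for Fas to 0.61 for Pmaip1, with a median of 0 and a median SE of 0.22, against a median SE of 0.11 in either culture stage. Fas was at 7.28, 8.10 and 7.03 in null recipients, against 7.95, 8.13 and 7.41 in wildtype recipients, which overlapped. Bbc3 was at 9.52, 9.36 and 9.71 in null recipients, against 9.03, 8.93 and 9.66 in wildtype ones, and Trp53inp1 at 7.60, 8.14 and 8.12 in null recipients, against 7.82, 7.58 and 8.81 in wildtype ones, both with overlap. The test of whether the step to tumours differed between genotypes called 0 members and 0% of all genes, with 2 members and 788 genes at an unadjusted p under 0.05.

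Tumours differed from the transformed MEFs they grew from in 12 of 28 members with the null genotype (2 higher, 10 lower) and in 13 with the wildtype (1 higher, 12 lower). Of all genes, 44.1% were called with the null genotype (22.6% higher, 21.5% lower) and 38% with the wildtype (19.2% higher, 18.8% lower). The direction of this count depended on the scaling of the arrays. On the values as deposited, where the median of all genes was 0.37 higher in tumours, the split was 8 higher and 3 lower with the null genotype and 5 higher and 4 lower with the wildtype. With each array centred on its median, where that shift was 0.18, it was 7 higher and 5 lower with the null genotype and 3 higher and 6 lower with the wildtype. Calls that passed under all 3 scalings were Ccng1, Tnfrsf10b and Rps27l lower and Apaf1 and Cdkn1a higher with the null genotype, and Ccng1, Bbc3, Trp53inp1 and Tnfrsf10b lower and Apaf1 higher with the wildtype.

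**Figure D5:**
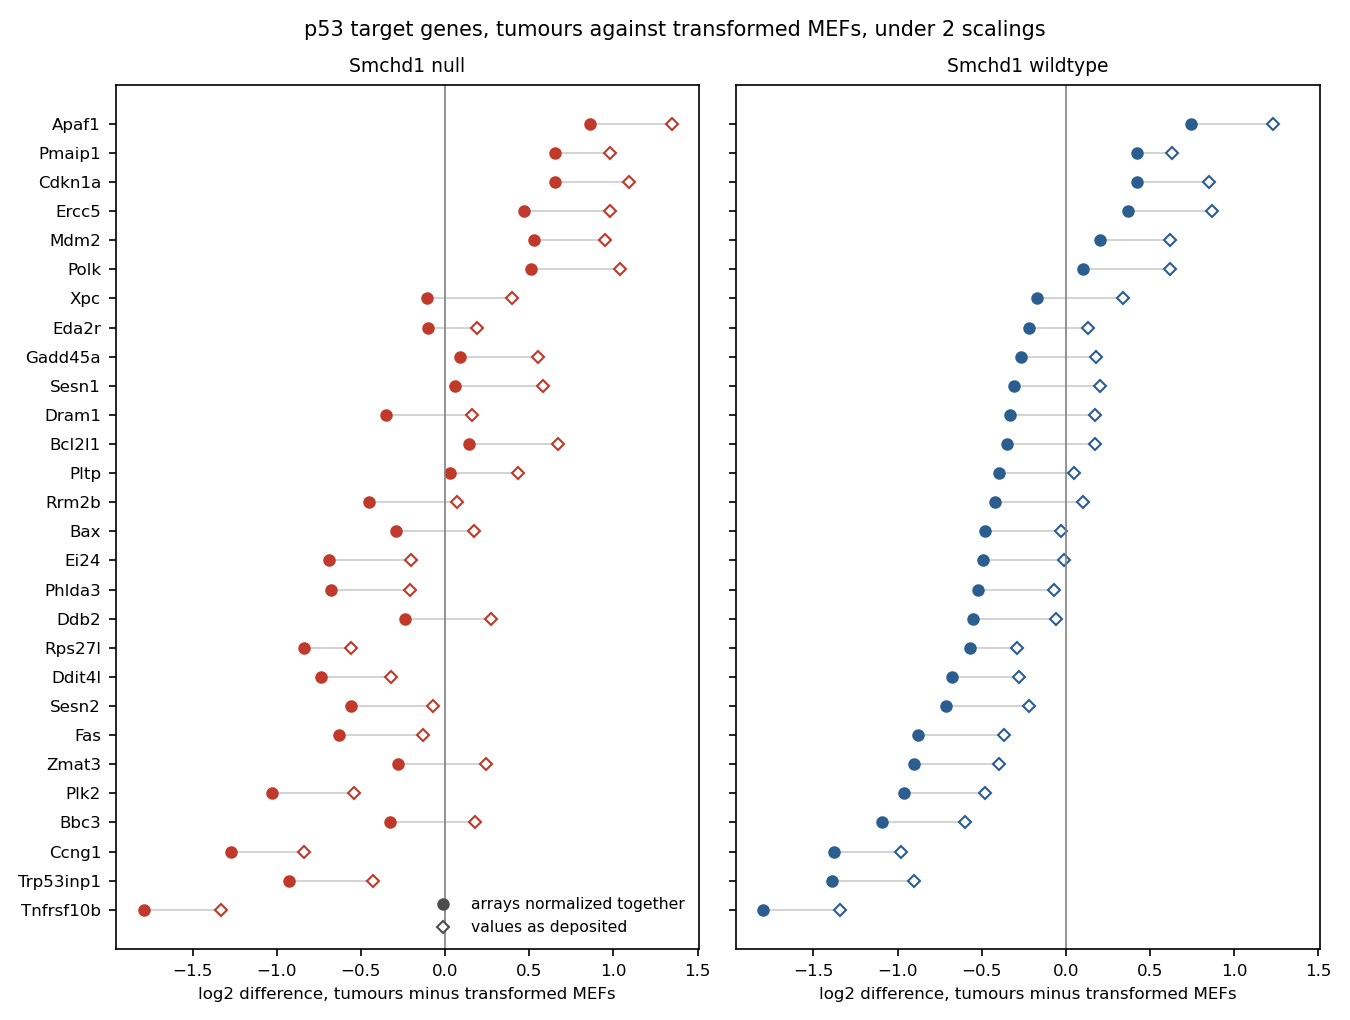
Log2 difference of tumours minus transformed MEFs for the 28 members, with all arrays quantile normalized together (filled circles) and on the values as deposited (open diamonds), in null (left) and wildtype samples (right). The diamonds lie to the right of the circles for every member, and Apaf1 and Ccng1 keep their sign in both genotypes.

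Ccng1, which had risen on transformation, was at 10.45, 10.64 and 10.92 in null tumours, against 11.92, 11.84 and 12.07 in null transformed MEFs. With the wildtype genotype it was at 10.89, 10.73 and 11.23 in tumours, against 12.23, 12.29 and 12.46 in transformed MEFs. It fell 2.41-fold and 2.60-fold (adjusted p = 0.000151 and 9.64e-05), with differences of -0.84 and -0.98 on the values as deposited, and its other 2 probes differed by -1.82 and -1.54 in null and by -1.77 and -1.41 in wildtype samples. Wildtype Bbc3 was at 9.03, 8.93 and 9.66 in tumours, against 10.22, 10.43 and 10.25 in transformed MEFs, a 2.13-fold fall (adjusted p = 0.000499). This fall rests on 1 probe, as its other 2 probes differed by 0.26 and -0.13, and the mean of all 3 was not called (-0.32, adjusted p = 0.122). Wildtype Trp53inp1 was at 7.82, 7.58 and 8.81 in tumours, against 9.46, 9.54 and 9.39 in transformed MEFs, a 2.63-fold fall (adjusted p = 0.00078). In null samples Trp53inp1 fell 1.91-fold (adjusted p = 0.00766), which was not called on the values as deposited (-0.43), with each array centred on its median (-0.62), on the mean of its 2 probes (-0.41) or without recipient 4. Its second probe differed by 0.12. Null Bbc3 was not called. Tnfrsf10b was at 6.60 to 6.69 in null and 6.60 to 6.97 in wildtype tumours, against 8.15 to 8.66 in null and 8.42 to 8.78 in wildtype transformed MEFs. Its main probe fell 3.45-fold and 3.48-fold (adjusted p = 7.23e-05 and 7.77e-05), while its other 3 detected probes differed by 0.03 to 0.21, so the fall rests on 1 probe. Rps27l was at 12.97, 13.37 and 13.25 in null tumours, against 14.14, 13.98 and 13.99 in null transformed MEFs, a 1.78-fold fall (adjusted p = 0.00139). Wildtype Rps27l was also called lower, with a difference of -0.57 (adjusted p = 0.0155). That call was lost on the values as deposited (-0.29, adjusted p = 0.177) and without recipient 1 or 3.

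The other members called lower in tumours lost the call on the values as deposited. Plk2 was at 9.86, 9.54 and 8.98 in null tumours, against 10.65, 10.29 and 10.53 in null transformed MEFs, and at 9.87, 9.59 and 9.32 in wildtype tumours, against 10.49, 10.45 and 10.74 in wildtype transformed MEFs. Its groups did not overlap, with differences of -1.03 in null and -0.96 in wildtype samples (adjusted p = 0.00323 and 0.00579), and of -0.54 and -0.48 on the values as deposited. Fas (-0.63 in null and -0.88 in wildtype samples), Sesn2 (-0.56 and -0.71) and Ei24 (-0.69 and -0.49) were called in both genotypes, and on the values as deposited they differed by -0.37 to -0.01. Phlda3 (-0.68) and Rrm2b (-0.45) were called lower with the null genotype alone, and Bax (-0.48), Ddb2 (-0.55) and Zmat3 (-0.90) with the wildtype alone, but no test called a difference between genotypes. Sesn1 and Ddit4l, the members with the largest falls on transformation, were called in tumours of neither genotype, at 0.06 and -0.74 in null and -0.31 and -0.68 in wildtype samples. Ddit4l was above background in 2 of 3 null and 1 of 3 wildtype tumours, so the size of any further fall could not be read. Null tumours, at 6.18 to 6.64 for Ddit4l, lay below null transformed MEFs, at 7.09 to 7.20, without overlap, while the wildtype groups overlapped.

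Cdkn1a and Apaf1 were the members called higher in tumours. Cdkn1a was at 11.72, 11.97 and 12.80 in null tumours, against 11.53, 11.46 and 11.54 in null transformed MEFs. It rose 1.57-fold (adjusted p = 0.0183), a call that was lost without recipient 6, whose level was the highest (0.34, adjusted p = 0.168). Wildtype Cdkn1a was at 12.26, 12.10 and 11.94 in tumours, against 11.78, 11.64 and 11.61 in transformed MEFs, with no overlap and a difference of 0.42 (adjusted p = 0.115). The other 2 Cdkn1a probes differed by 1.19 and 1.20 in null and by 0.86 and 0.55 in wildtype samples. Apaf1 was at 11.44, 11.07 and 11.16 in null tumours, against 10.14, 10.55 and 10.41 in null transformed MEFs. With the wildtype genotype Apaf1 was at 11.32, 10.89 and 11.58 in tumours, against 10.43, 10.64 and 10.49 in transformed MEFs. It rose 1.81-fold and 1.67-fold (adjusted p = 0.00553 and 0.0149), and of its other 2 probes 1 differed by 0.83 and 0.85 and the other by -0.59 and -0.26. The null call was lost without recipient 4 and the wildtype call without recipient 1 or 3 (adjusted p up to 0.0862).

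Leaving out 1 recipient moved the number of called members to 7 (without null recipient 4) and to 8 (without wildtype recipient 1). With the arrays of the third tumour chip alone, 1 for each recipient, 4 members were called with the wildtype genotype, against 11 and 14 with those of the other chips, and 9 with the null genotype, against 13 and 11. Macrophage and leukocyte markers, at a mean of 6.31 to 6.39 in null transformed and 6.28 to 6.34 in wildtype transformed MEFs, were at 10.37 to 11.05 in null tumours and 10.89 to 11.54 in wildtype tumours, and all 12 that passed the filter were higher in tumours of both genotypes. All 3 erythroid markers, and 7 of 10 endothelial markers with the null genotype and 8 with the wildtype, were higher as well. Both detected Trp53 probes were also higher in tumours than in transformed MEFs, as given above. The part of recipient cells in the members' tumour values was not tested.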

How the data were processed

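RNA from 30 samples was read on Illumina MouseWG-6 V2 bead arrays. The deposited log2 intensities were used. Per the submitters' processing notes, the authors worked with BeadStudio, limma 3.12.1 and R 2.15.1, with no step given for each. In those deposited log2 values the sorted intensities differed by at most 0.0369 among the arrays of a stage, whereas against primary MEFs the largest shift was 0.256 for transformed MEFs and 0.49 for tumours. All 30 arrays were therefore quantile normalized together. The detection p-value of each probe was computed by BeadStudio 3.4.0 before deposit, per the file headers. The scanner columns match no sample label, so 480 columns were assigned to no sample, and the detection p-values served only to count arrays. The scanner intensities were not used for the same reason.

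Probes were named through RefSeq, 27400 by a current and 8341 by an older symbol, while 191 had a shared older symbol and 9349 no match. A probe was kept where 3 or more arrays detected it at p under 0.01 (20254 probes), and the probe with the highest mean stood for its gene (13870 genes). No 2 arrays held identical values. Tests used limma 3.58.1 in R 4.3.3 over all these genes with Benjamini-Hochberg adjustment, called under 0.05: 1 fit of the 12 culture arrays, 1 fit per stage for genotype, and 1 fit of transformed MEFs and tumours with a variance weight per stage. A tumour replicate was a recipient, the mean of its 3 arrays. Adjusted p-values are from these fits, except where an alternative is named beside them, and array number limits their precision. The steps were tested on simulated data, with 200 of 13870 genes changed in each of 5 runs. Of the simulated calls between tumours and transformed MEFs, 17.8% (null) and 16.6% (wildtype) were false, above the threshold of 0.05. Between transformed and primary MEFs the false share was 8.25% (null) and 6.32% (wildtype). It was 8.67% in the test of the transformation effect between genotypes and 4.08% between null and wildtype transformed MEFs. For the step to tumours between genotypes it was 21.2%. A false share depends on how many genes change, and between stages 38% to 54.4% of genes were called in the data. The simulated shares therefore cannot be carried over to the real calls between stages, whose false share is not known.

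Every member may be named. Values in each sample were given for the 12 with the smallest adjusted p between wildtype transformed and primary MEFs, those called in a genotype test or interaction, and the 4 with the highest level. Other members given by sample (Plk2 and Apaf1 in tumours) were added after their values were seen. The members, gene lists and marker lists were chosen with earlier results of these data known. Alternatives were other scalings, filters, probe summaries, fits, a replicate block, single tumour chips and leaving out each replicate.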

Additional observations from a re-analysis of the deposited data

Results flagged for a closer look

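For 3 members the effect of transformation differed between the genotypes, by the test of that difference itself (limma, adjusted over all genes). The transformed minus primary difference in null cells less that in wildtype cells was -0.91 for Fas, -0.68 for Trp53inp1 and -0.64 for Bbc3. Fas differed by -1.24 in null and by -0.33 in wildtype cells, Trp53inp1 by -0.94 and -0.26, and Bbc3 by 0.16 and 0.80. With each of 12 replicates left out in turn, the Fas call was kept in 12 cases, the Bbc3 call in 3 and the Trp53inp1 call in 2. Over the mean of its detected probes Bbc3 was not called (-0.15, adjusted p = 0.643). The single fit of all 6 groups called 0 of the 3. In tumours the null and wildtype recipients overlapped for all 3. No groups here have 4 or more replicates, so single samples were not screened for standing apart.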

How the results depend on the processing

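Of the called members' results, 230 of 259 alternatives in wildtype and 240 of 260 in null cells kept direction and call between transformed and primary MEFs. The same held for 31 of 57 in the test of the transformation effect between genotypes, for 24 of 39 between null and wildtype transformed MEFs, and for 148 of 192 (null) and 161 of 208 (wildtype) between tumours and transformed MEFs. A single fit of all 6 groups called 12 members between wildtype transformed and primary MEFs, against 20, and 0, against 3, both in the test of the transformation effect between genotypes and between null and wildtype transformed MEFs. That fit shares 1 spread between tumours and cultures. Without the detection filter, which adds genes to the adjustment, the test of the transformation effect called 1 member. With the third tumour chip alone, 4 members were called in wildtype tumours, against 13, and the cause was not tested. Leaving out 1 replicate at a time gave 1 to 2 members in the test of the transformation effect, 1 to 2 between null and wildtype transformed MEFs, 7 to 11 in null tumours and 8 to 14 in wildtype tumours. Of the calls between transformed and primary MEFs, 17 of 20 in null and 15 of 20 in wildtype cells were kept whichever replicate was left out, and of those between tumours and transformed MEFs, 5 of 12 with the null and 6 of 13 with the wildtype genotype. The sign turned for Tnfrsf10b between null transformed and primary MEFs with the mean of all detected probes (0.24, against -0.49), since its probes disagree, and for Rrm2b in null tumours on the values as deposited (0.07, against -0.45), where the median of all genes was 0.37 higher.

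Replicate numbers of the labels gave no sign of pairing the samples. The deviations of same-numbered samples from their group means had correlations of -0.37 to 0.07. With the replicate block, 20 members were called between transformed and primary MEFs in null cells and 18 in wildtype cells, 2 in the test of the transformation effect (Trp53inp1 was not called, adjusted p = 0.0726), and 2 between null and wildtype transformed MEFs (Bbc3 was not called, adjusted p = 0.052) and 0 between null and wildtype primary MEFs. With chip as a block and recipient as a random block (correlation 0.384), 0 members were called between null and wildtype tumours.

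The median SE of the members was 0.22 between null and wildtype tumours, against 0.11 between null and wildtype transformed MEFs, so that the tumour comparison resolves only larger differences.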
